A study of Mus musculus with 8 samples.

Results

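The 78 mouse genes whose symbols name them as mitochondrial ribosomal proteins of the small subunit (Mrps) or the large subunit (Mrpl) were compared between 4T1.13-miR-21-KD and 4T1.13-VC mammary tumours. They were taken by symbol alone, without pseudogenes, from a table of 27179 gene identifiers, and all 78 were in it. The family itself was chosen with earlier results of these data known. The tumours grew from 100000 cells of 4T1.13, a metastatic mammary carcinoma line of the BALB/c strain, placed orthotopically in the mammary gland of mice of that strain. The sample labels give day 14 for their recovery and the study's methods day 12, both as the miR-21-KD tumours began to regress. The miR-21-KD cells carried a lentiviral vector whose H1 promoter drives an RNA able to bind and sequester miR-21, whereas the VC cells carried a scrambled RNA in the same backbone. Both vectors also held mCherry and hygromycin B resistance, each line was a pool of 6 clones, and the mice were female and 7 to 8 weeks old at inoculation according to the methods. RNA sequencing of 4 whole tumours per line gave between 12134849 and 13592695 reads counted on genes per tumour. Only the injected cells carried a vector, whereas the libraries hold RNA of host cells as well.

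Mitochondria translate their own mRNAs, all of which encode subunits of the oxidative phosphorylation complexes, on ribosomes of their own. The rRNAs of these ribosomes come from mitochondrial DNA, whereas every protein of the particle is encoded in the nucleus, made in the cytosol and imported. Some of the proteins have a counterpart in the bacterial ribosome and others were acquired in the mitochondrial lineage. The genes are expressed in nearly all cell types.

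Most of the mitochondrial ribosomal protein genes had lower estimates in miR-21-KD than in VC tumours, and the differences were small. Of the 78, 77 passed the filter on low counts and were tested with edgeR's quasi-likelihood test, with Benjamini-Hochberg adjustment over all 14382 genes tested. Of these 77, 21 fell (adjusted p below 0.05), or 27.3% of them against 19.5% of all genes tested that fell. None rose, against 19.6% of all genes, and 39.1% of all genes changed in either direction. At an unadjusted p under 0.05, 27 of the 77 were lower and 0 were higher, where the shares over all genes were 25.4% and 25.3%. DESeq2 and limma-voom called 0 higher as well, and called 26 and 24 lower, beside 21.6% and 20.4% of all genes. A fit with the replicate number as a block, which pairs same-numbered tumours, called 28 of the 77 lower (36.4%) and 0 higher. The shares over all genes there were 22.1% and 23.0%. The log2 fold change was below 0 for 69 of the 77 (89.6%) against 51.2% of all genes. The median member differed by -0.22 on the log2 scale, a change of -14.4%, with the middle of the distribution between -0.37 and -0.10, whereas the median over all genes was -0.01. In 24 members all 4 miR-21-KD values lay below all 4 VC values, and 18.9% of all genes did so. The count of 21 depended on single tumours. It was 12 without VC tumour 3, 13 without VC tumour 2 and 13 without miR-21-KD tumour 3 (15.6%, 16.9% and 16.9% of members), and the shares of all genes that fell dropped too, to 10.2%, 10.8% and 12.2%.

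**Figure D1:**
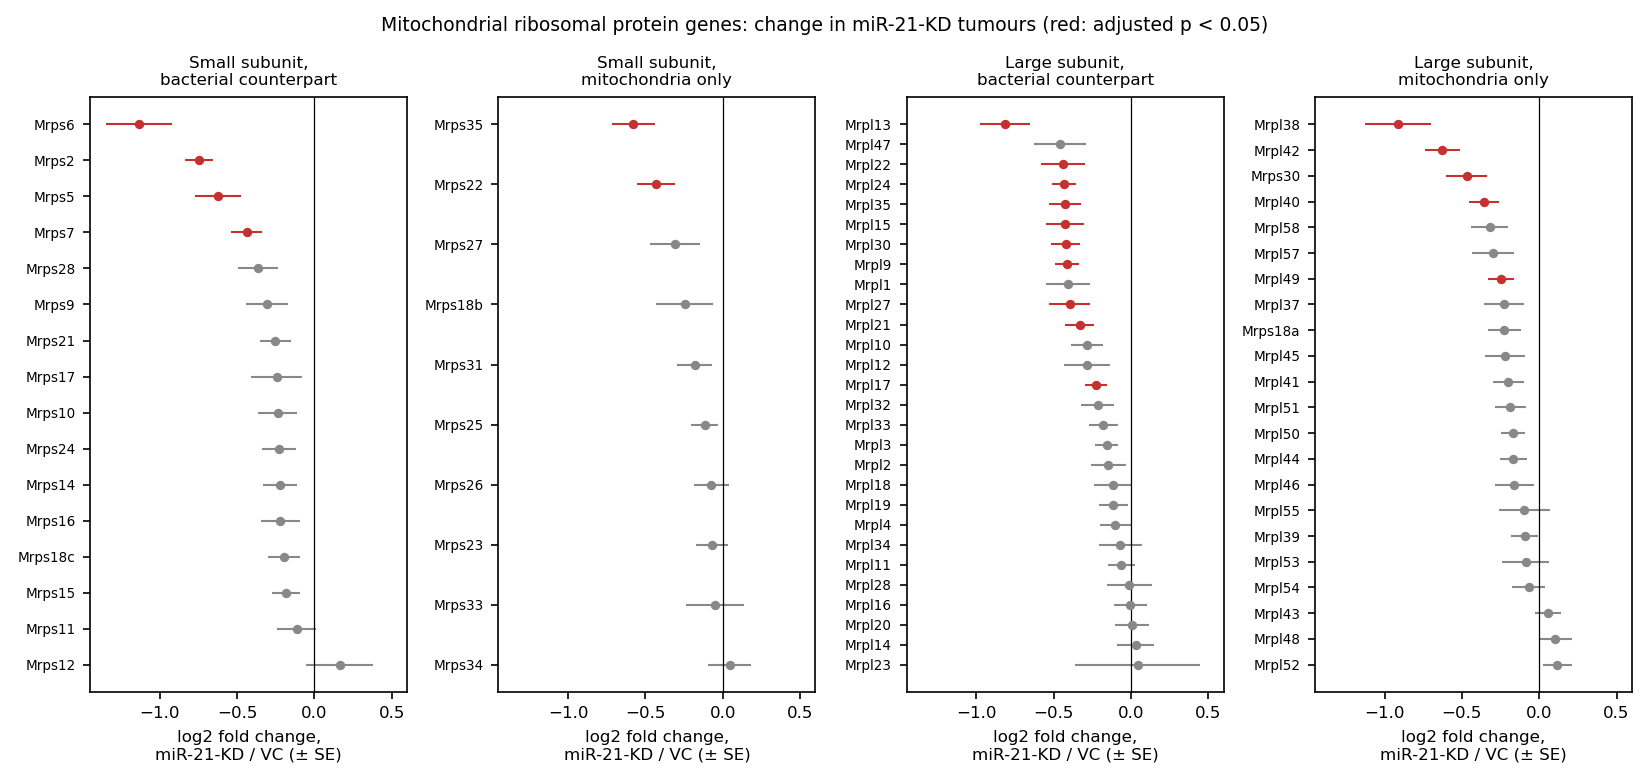
Log2 fold change of miR-21-KD over VC tumours (x axis, points with standard error) for the tested members of 4 structural groups, without Mrps36, with genes past an adjusted p of 0.05 in red. Most points lie to the left of 0, all 21 red points do, and only Mrps6 lies beyond -1.

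The members together took a smaller share of the counted reads in every miR-21-KD tumour than in any VC tumour. In VC tumours 1 to 4 they took 0.253%, 0.282%, 0.283% and 0.287% of the reads. In miR-21-KD tumours 1 to 4 they took 0.194%, 0.245%, 0.213% and 0.235%. VC tumour 1 was the lowest of its group and miR-21-KD tumour 2 the highest of the other, and these nearest values, 0.253% and 0.245%, did not overlap. The mean log2 CPM (read counts scaled to a fixed library size, with TMM factors) of the 77 tested members was 4.76, 4.88, 4.90 and 4.94 in the VC tumours and 4.46, 4.72, 4.59 and 4.69 in the miR-21-KD tumours. In whole tumours, fewer cells of a type and less RNA per cell cannot be told apart.

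Other genes moved with the same split of the tumours. All 8 markers of cycling cells fell, with a median log2 fold change of -1.10. Their summed CPM was 1514 to 2100 in VC tumours and 572 to 1526 in miR-21-KD tumours, and miR-21-KD tumour 2, which had the highest member share of its group, also had the highest sum there. Other tumours did not keep this order. VC tumour 4 had the highest member share of its group and the lowest sum (1514). Likewise, miR-21-KD tumour 4 had a larger member share than tumour 3 and a smaller sum (646 against 752). All 3 leukocyte markers rose, with summed CPM of 700.4 to 1319 in VC tumours and 1380 to 2041 in miR-21-KD tumours. Of the other marker lists, 9 of 10 macrophage, 6 of 10 T cell, 6 of 8 fibroblast and 4 of 4 adipocyte genes rose, beside 19.6% of all genes. The replicate block gave 8 of 10 T cell and 7 of 8 fibroblast genes higher, beside 23.0% of all genes, and the same macrophage and adipocyte counts. In the mammary carcinoma epithelium list 7 of 9 rose, whereas the keratin Krt18 fell from 1022 ± 243 to 459.8 ± 216 CPM (SD, n = 4). The summed CPM of the epithelium list was 1306 to 2264 in VC tumours and 903 to 2016 in miR-21-KD tumours, with a lower mean in the latter (1970 and 1530). Neutrophil genes had 1 of 6 and endothelial genes 1 of 5 higher (16.7% and 20%, near the share over all genes), and neither the 4 tested B cell genes nor the single tested muscle gene passed the test. Summed B cell markers were 5.38, 1.99, 2.99 and 154 CPM in VC tumours 1 to 4. In miR-21-KD tumours 1 to 4 they were 14.5, 9.83, 9.01 and 67.8 CPM, so tumour 4 was far above the others in both groups. Summed neutrophil markers were 830 to 1438 CPM in the VC group and 1591 to 3197 CPM in the miR-21-KD group, without overlap, and 3 of the 6 were called higher with the replicate number as a block, beside 23.0% of all genes. Summed T cell markers were 56.2 to 225 CPM in the VC group and 189 to 418 CPM in the miR-21-KD group, and macrophage markers 3278 to 5286 and 7257 to 11523 CPM. Fibroblast markers were summed to 1796 to 4093 and 5912 to 12349 CPM, and adipocyte markers to 84.1 to 315 and 416 to 1099 CPM. The part of these shifts in the member values was not tested.

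**Figure D2:**
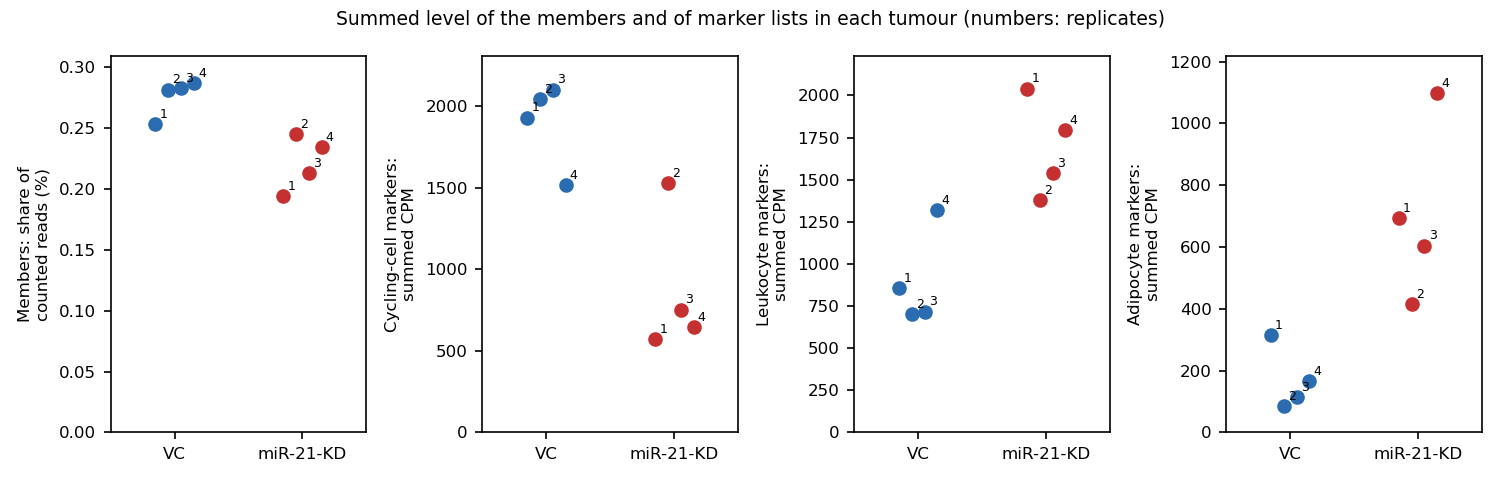
Share of counted reads taken by the members (%) and summed CPM of the cycling-cell, leukocyte and adipocyte markers (y axes, from 0) in each VC and miR-21-KD tumour, with points labelled by replicate number. The member share is lower in every miR-21-KD tumour, whereas the cycling-cell sums overlap through miR-21-KD tumour 2.

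In the small subunit, 6 of 26 tested members fell (23.1% beside 19.5% of all genes), with a median log2 fold change of -0.23. With the replicate number as a block, which added Mrps14, Mrps21 and Mrps28, 9 of 26 passed (34.6% beside 22.1% of all genes). Mrps6, the counterpart of bacterial S6, had the largest difference of all members. It was at 43.1, 70.1, 63.8 and 61.8 CPM in VC tumours 1 to 4 and at 19.2, 36.6, 26.8 and 26.1 CPM in the miR-21-KD tumours, in the same order. The lowest VC value was above the highest miR-21-KD value, and the log2 fold change was -1.14 with a standard error of 0.21 (edgeR adjusted p = 0.00777). An exon of Mrps6 shares 159 bases on the same strand with Slc5a3, a myo-inositol transporter gene, whose own log2 fold change was -1.69, so reads there cannot be assigned to either gene with certainty. Mrps2, the counterpart of bacterial S2, had the smallest adjusted p among the members. Its CPM was 62.6, 74.4, 64.2 and 68.7 in VC tumours and 36.8, 44.5, 40.7 and 39.1 in miR-21-KD tumours, and the log2 fold change was -0.74 ± 0.09 (SE, edgeR adjusted p = 0.00501). Within each group the Mrps2 values were close together.

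Mrps5, the counterpart of bacterial S5, was at 23.2, 23.1, 20.1 and 23.2 CPM in the VC group and at 12.2, 18.6, 14.1 and 13.1 CPM in the miR-21-KD group. Its log2 fold change was -0.62 ± 0.15 (SE, edgeR adjusted p = 0.0140). Mrps7, the counterpart of bacterial S7, fell from 55.3 ± 4.73 to 40.8 ± 3.76 CPM (SD, n = 4). Of the small-subunit proteins without a bacterial counterpart, Mrps35 and Mrps22 fell and the other 8 did not pass the test. Mrps35 was at 32.1, 28.6, 29.2 and 32.5 CPM in the VC group and at 15.8, 24.1, 20.5 and 21.6 CPM in the miR-21-KD group (log2 fold change -0.58 ± 0.14, edgeR adjusted p = 0.0140). Mrps22 fell from 19.7 ± 1.55 to 14.6 ± 1.69 CPM. For both Mrps5 and Mrps35, miR-21-KD tumour 2 was the nearest to the VC values and tumour 1 the farthest.

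In the large subunit, 15 of 50 tested members fell (30%, beside 19.5% of all genes), with a median log2 fold change of -0.21. The replicate block gave 19 of 50 (38%, beside 22.1% of all genes), with Mrpl1, Mrpl10, Mrpl12, Mrpl47 and Mrpl58 added and Mrpl49 lost. Mrpl13, the counterpart of bacterial L13, had the highest mean CPM of the members. It was at 123, 127, 123 and 120 CPM in the VC group and at 51.3, 94.8, 69.0 and 65.1 CPM in the miR-21-KD group. Its log2 fold change was -0.81 ± 0.16 (SE, edgeR adjusted p = 0.00936). The VC values spanned a narrow range, and the miR-21-KD values were spread out between tumours 1 and 2. Mrpl38, a protein found only in mitochondrial ribosomes, was at 77.9, 96.8, 102 and 78.5 CPM in the VC group and at 29.2, 61.9, 45.5 and 52.0 CPM in the miR-21-KD group (log2 fold change -0.91 ± 0.21, edgeR adjusted p = 0.0138). Mrpl42, also without a bacterial counterpart, was at 54.8, 61.2, 61.9 and 60.3 CPM in the VC group and at 33.9, 45.1, 33.8 and 41.6 CPM in the miR-21-KD group (log2 fold change -0.63 ± 0.11, edgeR adjusted p = 0.00713). None of these values overlapped between the groups.

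Mrps30, which sits in the large subunit despite its name, was at 40.8, 42.2, 44.2 and 45.9 CPM in the VC group and at 23.3, 35.8, 31.98 and 33.8 CPM in the miR-21-KD group. Its log2 fold change was -0.47 ± 0.13 (SE, edgeR adjusted p = 0.0250), and the call was lost without VC tumour 2, VC tumour 3 or miR-21-KD tumour 3. Mrpl24, Mrpl30 and Mrpl9, all counterparts of bacterial proteins, had small differences with small errors. Mrpl24 fell from 59.0 ± 3.60 to 43.7 ± 2.40 CPM, Mrpl30 from 69.0 ± 4.42 to 51.5 ± 4.96 CPM and Mrpl9 from 65.6 ± 3.81 to 49.3 ± 2.83 CPM (SD, n = 4). The other large-subunit members that fell were Mrpl35, Mrpl15, Mrpl22, Mrpl27, Mrpl21, Mrpl17, Mrpl40 and Mrpl49, with log2 fold changes from -0.44 (Mrpl22) to -0.23 (Mrpl17). Mrpl49, at -0.25, was the least certain, with an edgeR adjusted p of 0.0453 that became 0.0508 with the replicate number as a block.

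**Figure D3:**
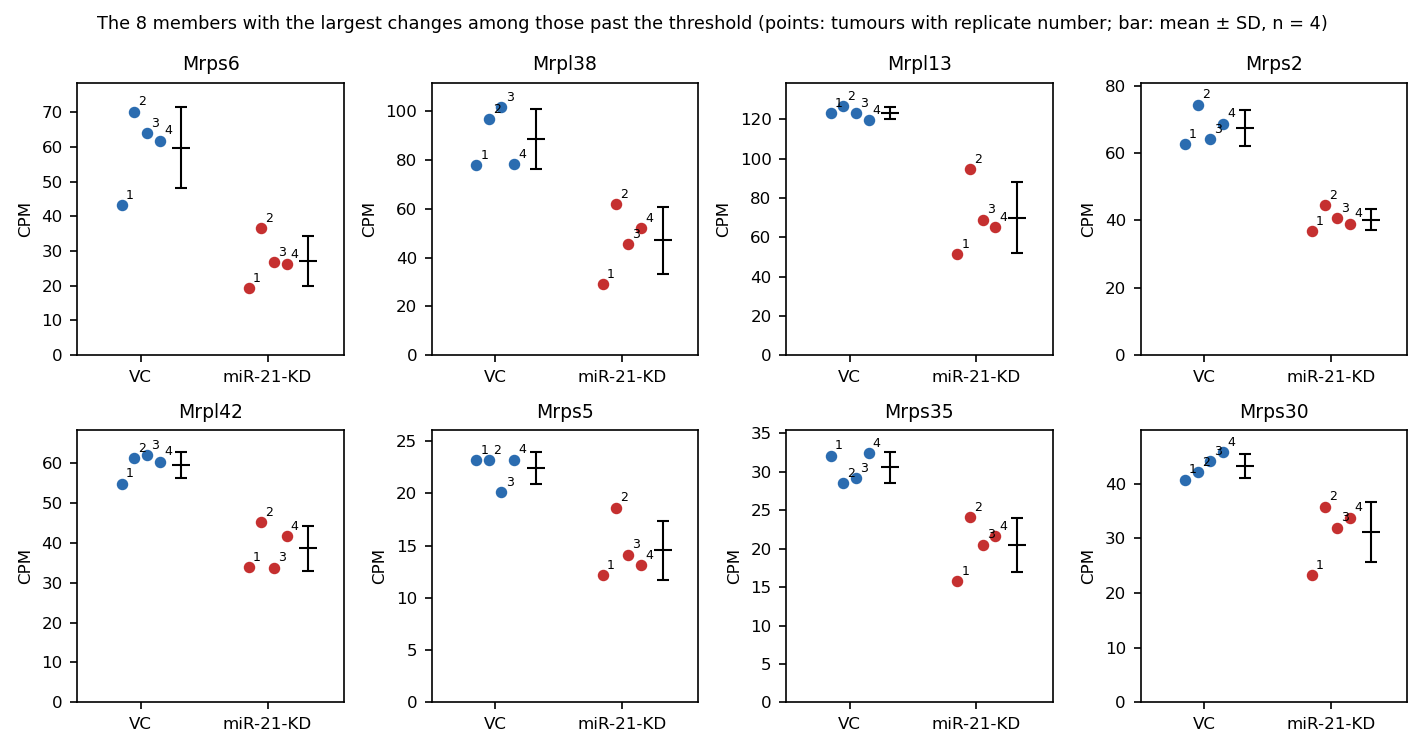
CPM (y axis, from 0) in each VC (blue) and miR-21-KD (red) tumour of the 8 members with the largest changes among those past the threshold, with points numbered by replicate and bars giving mean ± SD (n = 4). In every panel the 4 miR-21-KD points lie below the 4 VC points, and miR-21-KD tumour 2 is the highest of its group.

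Of the 21 members that fell, 12 stayed past the threshold when any 1 of the 8 tumours was left out. These were Mrps2, Mrps5, Mrps6, Mrps7, Mrps35, Mrpl9, Mrpl13, Mrpl24, Mrpl30, Mrpl35, Mrpl38 and Mrpl42. Mrpl15, Mrpl17, Mrpl21, Mrpl22, Mrpl27, Mrpl40, Mrpl49, Mrps22 and Mrps30 lost the call without at least 1 tumour. Mrpl17, Mrpl22, Mrpl27 and Mrpl49 also lost it with upper-quartile scaling and where each tumour had to hold 10 or more counts.

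Among members with a bacterial counterpart 14 of 44 fell (31.8%, median log2 fold change -0.23), and among those found only in mitochondria 7 of 32 fell (21.9%, median -0.18), beside 19.5% of all genes. With the replicate block, 21 of 44 (47.7%) and 7 of 32 (21.9%) passed, beside 22.1% of all genes. In the small subunit 4 of 16 with a counterpart and 2 of 10 without fell, and in the large subunit 10 of 28 and 5 of 22 did. Differences between these groups were not tested.

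Other members had estimates near 0. Mrpl16, Mrpl20 and Mrpl28, all in the large subunit, had the values closest to 0 among the tested members. Mrpl20 was at 42.3, 43.8, 51.3 and 51.0 CPM in the VC group and at 43.3, 47.9, 43.7 and 54.5 CPM in the miR-21-KD group, and these ranges overlapped. The highest estimate was that of Mrps12, at 0.16 ± 0.22 on the log2 scale (SE, edgeR adjusted p = 0.566), a gene singled out after its value was seen. Mrpl10, among the 5 members of highest mean CPM, was at 67.0 ± 5.87 CPM in the VC group and 55.0 ± 5.72 CPM in the miR-21-KD group (SD, n = 4) and narrowly missed the threshold (edgeR adjusted p = 0.0537). With the replicate number as a block its adjusted p was 0.0188.

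The 3 paralogs of the S18 family have separate places in the ribosome. Mrps18c, the counterpart closest to bacterial S18, was at 33.8 ± 3.53 CPM in the VC group and 29.4 ± 2.04 CPM in the miR-21-KD group (SD, n = 4). Mrps18b, another small-subunit protein, was at 12.6 ± 1.18 and 10.6 ± 2.58 CPM, and Mrps18a, a large-subunit protein, at 35.7 ± 2.999 and 30.6 ± 3.38 CPM. Their log2 fold changes were -0.20, -0.25 and -0.23, and none passed the test.

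Mrps36 carries the family name but is known as a subunit of the 2-oxoglutarate dehydrogenase complex and not as a ribosomal protein. It was at 1.11 ± 0.144 CPM in the VC group and 0.877 ± 0.178 CPM in the miR-21-KD group and did not pass the test (edgeR adjusted p = 0.319). The RefSeq annotation names 3 pseudogene copies of Mrps36 and 1 each of Mrpl23, Mrpl27 and Mrpl48, so the values of these 4 genes are uncertain. Mrpl36, the member that was not tested, had at most 1 read in a tumour. Levels between genes can be compared per exon length only. The length used here joins all annotated exons of a gene, which can exceed the length of its transcript. On that scale Mrps21, with 51.8 CPM per kb in VC tumours, stood above Mrps6 with 39.0 and Mrpl13 with 15.5 CPM per kb. Their joined exons span 739, 1533 and 7936 bases, so this order depends on the annotation and may not be that of the transcripts.

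**Figure D4:**
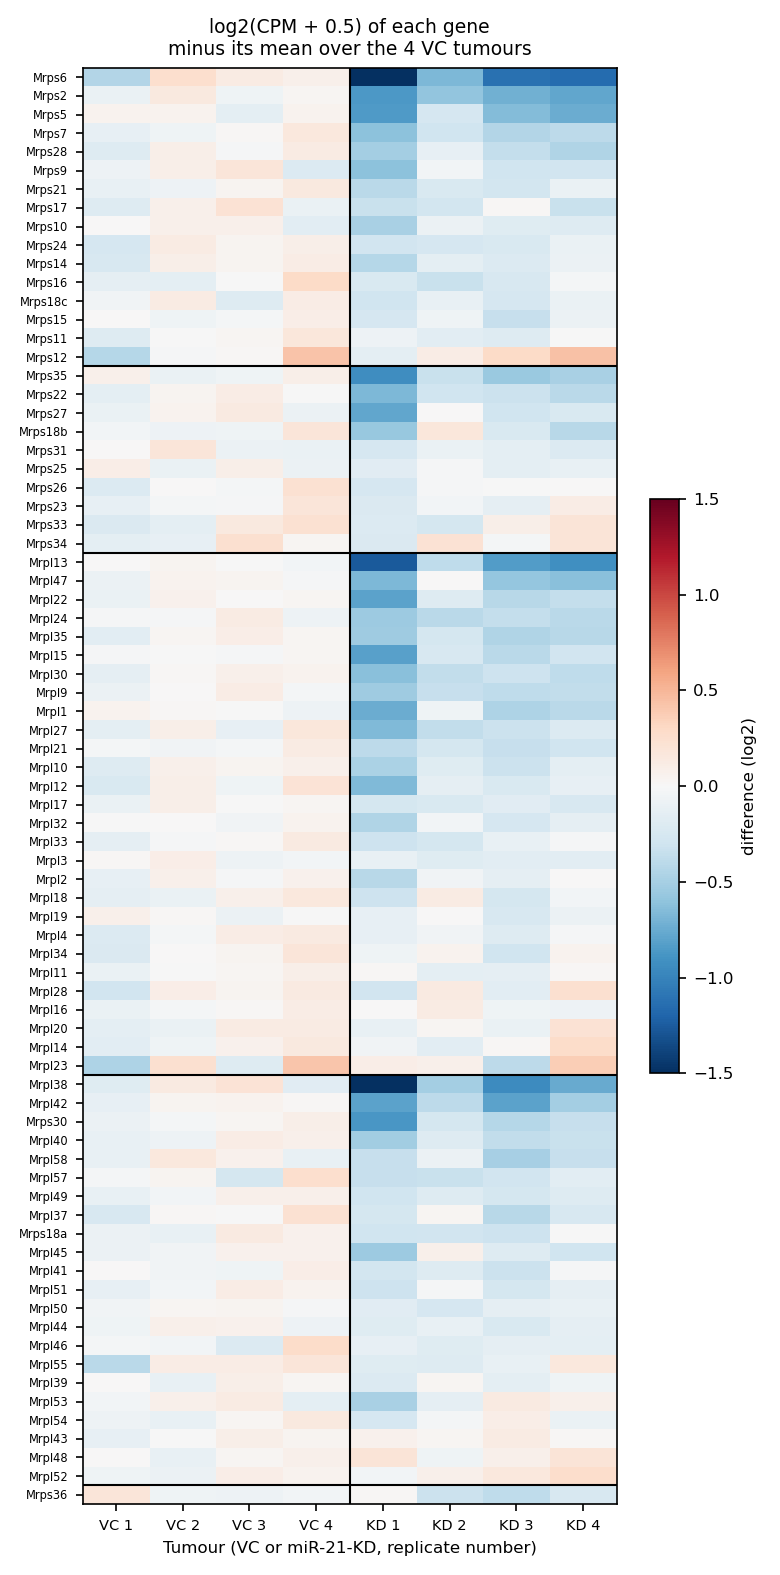
Log2(CPM + 0.5) of each tested member minus its mean over the 4 VC tumours (colour, blue lower, red higher) for 77 genes (rows, by structural group between black lines, ordered by fold change) in 8 tumours (columns). Blue fills most of the miR-21-KD columns and also that of VC tumour 1, with 63 members below the VC mean there and 60 to 71 in the miR-21-KD tumours.

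The members also shared variation within the groups. After removal of the group means, the mean correlation over the 2926 pairs of tested members was 0.34, and 81.0% of pairs were positive, whereas the mean over pairs of all genes was 0.0019. These correlations rest on 8 tumours that share libraries and scaling, and are given as a description. Across the members, Spearman's rho of the log2 fold change was -0.23 with mean log2 CPM and -0.27 with exon length, and genes are not independent replicates.

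Genes that act beside the members in mitochondrial translation were described in the same way. Of 5 further ribosomal proteins with other names, 2 fell and 0 rose, namely Ptcd3, from 47.1 ± 2.03 to 34.5 ± 7.07 CPM, and Chchd1, from 36.3 ± 2.35 to 29.6 ± 2.82 CPM (SD, n = 4). Of 26 genes of ribosome assembly and rRNA modification, 8 fell and 1 rose, with a median log2 fold change of -0.29. Noa1, a GTPase of small-subunit assembly, fell from 27.9 ± 1.00 to 17.1 ± 3.77 CPM, and C1qbp, a matrix protein needed for mitochondrial translation, from 112 ± 0.977 to 75.8 ± 13.4 CPM. Mterf3, which acts in large-subunit assembly, rose from 23.0 ± 1.26 to 27.7 ± 1.41 CPM. Of 15 translation factors, 6 fell and 0 rose (median -0.28), among them Mrrf, the ribosome recycling factor, from 34.6 ± 1.43 to 21.8 ± 4.00 CPM, and Oxa1l, which inserts new proteins into the inner membrane, from 97.4 ± 6.85 to 69.5 ± 3.68 CPM.

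Of 20 mitochondrial aminoacyl-tRNA synthetases and amidotransferase subunits, 2 fell and 2 rose (median log2 fold change -0.13). Pars2, for proline, and Gatc, an amidotransferase subunit, fell, and Sars2, for serine, and Qrsl1, another amidotransferase subunit, rose. Of 10 genes of mitochondrial DNA transcription and replication, 2 fell and 1 rose. Tfam, which packages and activates mitochondrial DNA, fell from 54.6 ± 3.24 to 40.4 ± 4.98 CPM (SD, n = 4), Tfb2m, a transcription factor of the same system, also fell, and the polymerase gene Polg rose from 40.8 ± 1.02 to 56.6 ± 0.756 CPM. Of 9 tested regulators of mitochondrial biogenesis, Nrf1 fell, with a log2 fold change of -0.41, and the coactivator Ppargc1b and the nuclear receptor Esrra rose, by 0.72 and 0.60.

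Of 12 tested mRNAs encoded in mitochondrial DNA, 1 fell. ND2, a complex I subunit, fell from 1987 ± 114 to 1511 ± 98.7 CPM (SD, n = 4), and the others did not pass the test. COX1 was at 7992 ± 803 and 7842 ± 854 CPM, CYTB at 4741 ± 268 and 3826 ± 271 CPM, ND1 at 3451 ± 244 and 3039 ± 296 CPM, ND4 at 1775 ± 93.5 and 1553 ± 132 CPM, ND5 at 1507 ± 188 and 1451 ± 253 CPM, and ND6 at 717 ± 100 and 871 ± 129 CPM. The counts of COX2, COX3, ATP6, ATP8 and ND3 were far below these, with VC means of 25.9, 30.2, 36.2, 1.88 and 1.52 CPM, and ND4L had at most 7 reads and was not tested. Whether these low counts follow the transcript levels cannot be told from the count table. The mitochondrial rRNAs mt-Rnr1 and mt-Rnr2, looked up after the other values were seen, had log2 fold changes of 0.08 and 0.10 and did not pass the test.

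Beyond translation, 9 of 30 genes of import, chaperones and channels fell and 0 rose (median log2 fold change -0.20), among them Phb, an inner-membrane scaffold, and Tomm22, an import receptor. Of 69 tested nuclear subunits of oxidative phosphorylation, 14 fell and 1 rose (median -0.08). Atp5c1, an ATP synthase subunit, fell from 397 ± 16.8 to 247 ± 39.0 CPM and Ndufs4, of complex I, from 86.3 ± 5.37 to 62.1 ± 4.94 CPM (SD, n = 4), and Uqcrq, of complex III, rose. Of 3 tested complex II genes Sdhc fell. Of 74 tested cytosolic ribosomal proteins, 13 fell and 0 rose (median -0.13), led by Rpl7a, from 222 ± 6.56 to 128 ± 10.7 CPM, and Rpl15. The shares that fell were 40% for the ribosomal proteins with other names, 33.3% for complex II, 30.8% for assembly, 40% for translation factors, 30% for import, 20.3% for oxidative phosphorylation, 17.6% for cytosolic ribosomal proteins, 20% for transcription and replication, 11.1% for biogenesis regulators, 10% for synthetases and 8.33% for mitochondrial DNA mRNAs, beside the 19.5% over all genes. The shares that rose were 22.2% for biogenesis regulators, 10% for synthetases, 10% for transcription and replication, 3.85% for assembly, 1.45% for oxidative phosphorylation and 0% for the other lists of that sentence, beside 19.6% over all genes. With the replicate number as a block, 4 synthetases (20%), 2 biogenesis regulators (22.2%), 11 import genes (36.7%) and 18 oxidative phosphorylation genes (26.1%) were lower, beside 22.1% of all genes. With that block 4 oxidative phosphorylation genes (5.80%) and 3 cytosolic ribosomal protein genes (4.05%) were higher, beside 23.0% of all genes.

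**Figure D5:**
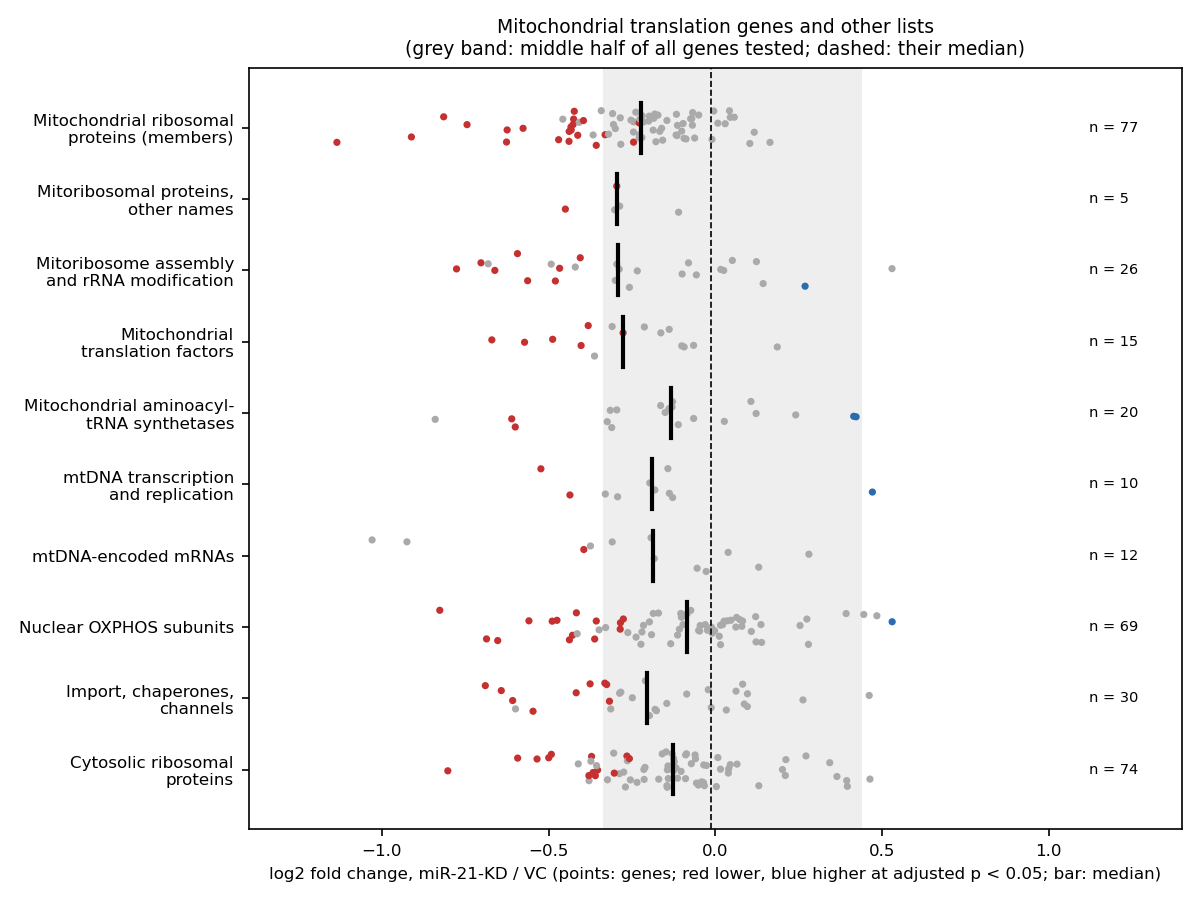
Log2 fold change of miR-21-KD over VC tumours (x axis) for genes of 10 lists (rows, points), with red for lower and blue for higher at an adjusted p under 0.05, black bars for list medians and a grey band for the middle range of all genes tested. The medians of all 10 lists lie left of the dashed line at -0.01, which marks the median of all genes.

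The promoters of the members were read from RefSeq (GRCm38.p6, 250 bases before to 50 after each start). Of the 78 members 69 had an entry, with 75 windows in all. Letters of 3 factors associated with mitochondrial and ribosomal genes were searched on both strands, GCGCANGCG for NRF1, CCGGAAGT for ETS factors and AAGATGGCG for YY1. The NRF1 letters were in 21.3% of the member windows, 12.04% of those of genes tested and 6.25% of all promoters. For ETS the shares were 16.0%, 7.32% and 3.89%, and for YY1 10.7%, 2.69% and 1.403%. At least 1 of the 3 was in 47.1% of windows of members that fell and 44.8% of those of members that did not. The windows below show members with each of these matches (capitals) and, for comparison, the members of largest change and of smallest adjusted p, which had none.
Mrpl9 (chr3:94443086-94443385, plus strand): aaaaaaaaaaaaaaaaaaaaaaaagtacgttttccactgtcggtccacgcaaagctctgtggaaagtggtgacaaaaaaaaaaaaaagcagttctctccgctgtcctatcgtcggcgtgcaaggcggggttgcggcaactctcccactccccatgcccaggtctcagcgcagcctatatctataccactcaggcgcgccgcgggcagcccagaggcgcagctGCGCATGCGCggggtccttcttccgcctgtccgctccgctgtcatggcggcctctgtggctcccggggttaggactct
Mrpl42 (chr10:95501900-95502199, minus strand): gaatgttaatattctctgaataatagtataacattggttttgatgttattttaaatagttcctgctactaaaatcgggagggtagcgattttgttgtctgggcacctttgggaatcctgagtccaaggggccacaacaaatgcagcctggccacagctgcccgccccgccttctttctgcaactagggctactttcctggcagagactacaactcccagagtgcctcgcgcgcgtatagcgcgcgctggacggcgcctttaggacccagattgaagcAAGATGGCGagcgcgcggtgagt
Mrpl43 (chr19:45006393-45006692, minus strand): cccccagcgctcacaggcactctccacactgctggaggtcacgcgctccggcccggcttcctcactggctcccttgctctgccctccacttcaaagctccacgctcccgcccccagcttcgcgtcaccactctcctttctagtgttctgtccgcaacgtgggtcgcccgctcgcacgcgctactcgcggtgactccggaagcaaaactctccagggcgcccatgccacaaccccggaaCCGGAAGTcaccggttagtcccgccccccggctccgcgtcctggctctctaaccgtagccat
Mrps6 (chr16:92058086-92058385, plus strand): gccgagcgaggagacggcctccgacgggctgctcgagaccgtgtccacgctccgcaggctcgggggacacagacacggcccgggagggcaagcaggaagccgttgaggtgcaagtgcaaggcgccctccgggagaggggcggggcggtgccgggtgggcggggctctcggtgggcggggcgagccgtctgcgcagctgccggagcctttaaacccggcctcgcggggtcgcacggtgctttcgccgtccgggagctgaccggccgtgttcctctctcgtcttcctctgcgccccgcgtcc
Mrps2 (chr2:28467816-28468115, plus strand): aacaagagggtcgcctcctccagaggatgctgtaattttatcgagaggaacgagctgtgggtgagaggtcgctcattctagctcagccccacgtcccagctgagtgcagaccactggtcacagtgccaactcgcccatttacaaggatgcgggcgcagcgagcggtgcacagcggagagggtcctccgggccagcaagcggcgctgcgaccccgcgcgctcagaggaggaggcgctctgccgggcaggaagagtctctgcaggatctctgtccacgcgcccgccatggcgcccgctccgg
Mrpl9 holds the NRF1 letters, Mrpl42 the YY1 letters and Mrpl43 the ETS letters, of which Mrpl9 and Mrpl42 fell and Mrpl43 did not pass the test (log2 fold change 0.06). Mrpl43 was chosen for its match after its value was seen. A match is a description of letters and not a binding site.

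The letters of miR-21 sites were also searched in the 3′ untranslated regions of the members, since miR-21 is the molecule the vector sequesters. The mature sequence from RefSeq (GRCm38.p6), with its seed (bases 2 to 8) in capitals, is as follows.
mmu-miR-21a-5p (chr11:86584120-86584141, minus strand): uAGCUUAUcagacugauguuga
The 7 bases ATAAGCT that pair with the seed were found in 4 of 78 members (5.13%) and 1076 of 13211 tested genes (8.14%). Member 3′ untranslated regions were shorter, with a median of 358 against 1161 bases. Sites of 3 members, from GENCODE transcripts of GRCm38, are shown with the 7 bases in capitals.
Mrpl3 (chr9:105076439-105076468, plus strand): ccttgccaaatATAAGCTactttctttaat
Mrpl58 (chr11:115411772-115411801, plus strand): ttcttaatcaaATAAGCTttgccctggtca
Mrpl9 (chr3:94448100-94448129, plus strand): cagtagatgtaATAAGCTgaatatcagtgg
Of these 3 genes, Mrpl9 fell, and Mrpl3 and Mrpl58 had log2 fold changes of -0.16 and -0.32 that did not pass the test, although Mrpl58 passed with the replicate number as a block (edgeR adjusted p = 0.0389). Mature miR-21 itself was not measured by these counts, and the Mir21a gene had 0 reads in every tumour, which allows up to 0.245 CPM in a tumour. Vmp1, whose transcription unit overlaps it, was at 354 ± 18.2 CPM in the VC group and 364.7 ± 16.1 CPM in the miR-21-KD group (SD, n = 4) and did not pass the test (edgeR adjusted p = 0.704).

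Members share ground with neighbouring genes. A start of another gene lay head to head within 1000 bases, or overlapped by at most 300, for 23 members, and in 21 of these pairs both genes were tested. The count does not hold Mrps11 and Mrpl46, both members, which lie on opposite strands with promoter windows that share 141 bases. Of the 21 partners 5 fell and 3 rose, beside 19.5% and 19.6% of all genes, with a median log2 fold change of 0.01, whereas the members beside them had a median of -0.23. Mrpl30 and Mitd1 fell together, by 0.42 and 0.54 on the log2 scale, and Mrpl27 fell by 0.40 with its partner Eme1, a nuclease gene, which fell by 1.32. Mrps5 fell by 0.62 beside Zfp661, whose log2 fold change was 0.32 and did not pass the test. Exons of 33 members overlapped those of another annotated gene, in 23 cases a protein-coding one, and 9 of the 21 members that fell were among these 23 (Mrps6, Mrps7, Mrps30, Mrpl9, Mrpl13, Mrpl21, Mrpl24, Mrpl27 and Mrpl49). Where the genes lie on opposite strands, reads can be separated only if the counting used the strand, which is not given in the sources used here. The members lie on 17 chromosomes, with at most 11 on any of them.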

How the data were processed

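The authors deposited raw read counts per Entrez gene, 1 column per tumour and without normalization; the submitters' processing notes name Subread, featureCounts, edgeR, limma and build mm10, without versions, and the annotation and strand setting are not given in the sources used here. Symbols and promoters came from RefSeq (GRCm38.p6), and exon lengths from GENCODE M21. All 8 columns were used, 4 per group, and no pair of libraries in a group agreed within sampling noise (chi-square per degree of freedom 10.3 to 57.8).

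Genes were kept with filterByExpr (at least 10 counts and a total of 15), leaving 14382 genes that held 99.9% of the counts. Libraries were scaled with TMM and miR-21-KD was compared with VC by the robust quasi-likelihood test of edgeR 4.0.16 in R 4.3.3, with Benjamini-Hochberg adjustment over all genes and a threshold of 0.05. Standard errors of log2 fold changes were derived from the test, as the absolute log2 fold change divided by the square root of its F statistic. Prior count for log2 CPM was 2, and the study calls the 4 tumours of a line biological replicates. The fit was tested on simulated data. A count of 0 allows 3 counts, which covers counting error only. Alternatives were DESeq2 1.42.0, limma-voom (limma 3.58.1) with and without quality weights, other scalings and filters, a replicate block, a test above 1.5-fold, an adjusted p under 0.01 and each tumour left out in turn.

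The labels number the tumours 1 to 4 in both groups. After removal of group means, same-numbered tumours correlated at 0.272, 0.421, 0.175 and 0.376, against a mean of -0.105 for the others. That removal holds the average over all pairs near 0, so the negative mean follows from the same-number values and adds no separate support. A pairing by number was thus read from the data and not from the labels. The main fit compared the groups without it, and it entered only as the replicate block among the alternatives.

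The members and gene lists were chosen with earlier results of these data known, and the lists were written from general knowledge. Members named with values were the 8 largest changes past the threshold in each direction, the 2 smallest adjusted p of each structural group, the 5 highest mean CPM, the 3 closest to 0, those not tested, Mrps36 and the S18 paralogs. In the other lists the 2 smallest adjusted p in each direction and all mitochondrial DNA genes were named. Further members are named where they fell, where a sequence match, or a value chosen afterwards, is shown. A miR-21 site of 1 further member is not reported here.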

Additional observations from a re-analysis of the deposited data

Results flagged for a closer look

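In 7 of 62 groups of 4 tumours examined, 1 tumour lay far from the other 3, and about 1 group in 20 is expected to do so by chance. VC tumour 1 was apart for the member share of counted reads (0.253%), for Mrpl10 (58.3 CPM) and for Mrps36 (1.33 CPM). VC tumour 4 was apart for Mrpl21 (25.7 CPM) and for Mrps18b (14.4 CPM). VC tumour 3 was apart for Mrps5 (20.1 CPM), and miR-21-KD tumour 4 for Mrps18a (35.6 CPM). Of these genes Mrps5 and Mrpl21 fell, and Mrps5 kept its call without VC tumour 3, whereas Mrpl21 kept its call without VC tumour 4.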

How the results depend on the processing

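The count of members that fell was 21, and it ranged from 12 to 28 when 1 tumour was left out. The count that rose was 0 in every alternative. Outside those omissions, the count of members that fell was 33 with limma-voom and quality weights, 6 at an adjusted p under 0.01 and 0 for changes above 1.5-fold, and it lay between 17 and 28 otherwise. With the replicate number as a block it was 28, which gained Mrpl1, Mrpl10, Mrpl12, Mrpl47, Mrpl58, Mrps14, Mrps21 and Mrps28 and lost Mrpl49 (36.4% of members, beside 22.1% of all genes lower). Over all genes, 5626 were past the threshold, 542 for changes above 1.5-fold, 1426 at an adjusted p under 0.01 and 2936 to 6840 when 1 tumour was left out, with the lowest values without VC tumours 3 (2936) and 2 (3290). The difference between the members' median and that of all genes was between -0.25 and -0.16 in the alternatives.

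The members near 0 changed sign. Mrpl16 was at 0.0151 with DESeq2, 0.0379 with upper-quartile scaling, 0.0142 with DESeq2 size factors and 0.0464 with the strict filter (10 or more counts in each tumour), and between -0.0546 and 0.0303 when 1 tumour was left out. Mrpl20 was at -0.0163 with library-size scaling, -0.0247 without a filter and -0.0168 with quality weights, and between -0.0658 and 0.0489 when 1 tumour was left out. Mrpl28 was at 0.00871 with DESeq2, 0.0338 with upper-quartile scaling, 0.00854 with DESeq2 size factors and 0.0407 with the strict filter, and between -0.0998 and 0.0752 when 1 tumour was left out. The cause of these changes was not tested. Depth limits Mrpl36, with at most 1 read in a tumour, and Mrpl23 and Mrps36, near 1 CPM.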
